A study of Mus musculus with 16 samples.

Results

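Toll-like receptors are pattern recognition receptors of innate immune cells. They bind molecules of microbes or damaged cells and signal through adaptors of the TIR family to NF-kB and interferon regulatory factors, which raise the transcription of cytokines and chemokines. In bone marrow they are known from monocytes, neutrophils, macrophages, dendritic cells and B cells, and also from blood-forming progenitors. The set described here holds 10 genes of 34763 gene names on the array: the receptors Tlr1, Tlr2, Tlr4, Tlr6, Tlr7, Tlr8, Tlr9 and Tlr13, Cd14, which hands lipopolysaccharide to the Tlr4 complex, and Ly96 (MD-2), the subunit of that complex that holds lipopolysaccharide. Members were found by their gene name in the array annotation and not by their values. They were covered by 14 probes of 55681, of which 11 passed the filter on dim probes, at least 1 for each of the 10 genes.

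Bone marrow RNA of 16 mice was measured, 1 array per mouse, in a study of the loss of sympathetic drive in marrow. The 8 mice labelled KO chimera, called KO-labelled mice here, were C57BL/6J animals that received 950 rad and then whole marrow of a beta-adrenergic receptor double knockout strain, injected once behind the eye. The labels give a ratio of 1 to 4 of knockout to C57BL/6J, without saying what was mixed. The 8 control mice were C57BL/6J animals that are also labelled as irradiated with 950 rad, and the labels name no marrow donor for them. Both groups recovered for 2 to 3 months, and age and sex are not given in the labels. Receptor loss therefore cannot be told apart from the background of the donor strain or from the graft, and the share of donor cells in each mouse is not known. The targeted gene Adrb1 did not check the labels. Its brighter probe lay between -2.58 and -2.34 (log2 level) in controls and between -2.99 and -2.19 in KO-labelled mice, with a difference of -0.00041 ± 0.11 (SE, limma adjusted p = 0.999), and no source used here places it inside or outside the altered stretch of Adrb1. A dimmer Adrb1 probe, well above background on 6 control and 7 KO-labelled arrays, was called higher in KO-labelled mice (0.95 ± 0.30, limma adjusted p = 0.0276), which goes against the label, and its place in the altered gene is likewise unknown. Every direction below is therefore that of the arrays labelled KO. Each array is labelled as a mouse of its own.

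A level is given throughout as the log2 of a probe's processed signal over the 75th percentile of the spots of its array, so 0 is the signal of that percentile. A difference is KO-labelled minus control on this log2 scale, and a probe was called when its limma p, adjusted by the Benjamini-Hochberg method over all 32664 probes kept, was under 0.05. That percentile ran from 127 to 545 signal units in KO-labelled mice and from 231 to 558 in controls, no spot was saturated, and control 8 had the most spots marked as outliers by the scanner software, 966 against 123 to 414 on the other arrays. All 10 marrow-defining genes, among them Mpo, S100a8, Hba-a1 and Cd79a, were well above background on every array. The scan took 2 days, each with 4 mice per group, and 5 of the 6 slides carried arrays of both groups.

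The probes read stretches of the transcripts, and 3 are shown because the results turn on them. Tlr1 and Tlr2 were both called and their products pair with each other, and in their probes capitals mark the 29 bases they share over the 47 bases of their best alignment without gaps. The Ly96 probe is shown because its place on the genome spans 3273 bases for an oligonucleotide of 60, so it crosses an intron of 3213 bases or several introns of that total. Sequences are those of the array annotation, 5′ to 3′, and positions are on mouse build mm9.
Tlr2, chr3:83640344-83640403: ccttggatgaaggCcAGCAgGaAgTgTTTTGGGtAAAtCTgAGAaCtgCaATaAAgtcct
Tlr1, chr5:65316115-65316174: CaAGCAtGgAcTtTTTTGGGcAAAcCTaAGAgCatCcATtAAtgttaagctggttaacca
Ly96, chr1:16696289-16699561: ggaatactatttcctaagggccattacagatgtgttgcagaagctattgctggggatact
The Tlr1 and Tlr2 probes each have 1 forward reading frame of 3 without a stop codon. No annotation of exons or untranslated regions in mm9 was used here. The remaining probes lie at chr4:66503470-66503529 (Tlr4), chr5:65344365-65344424 (Tlr6), chrX:163742863-163742922 and chrX:163743146-163743205 (Tlr7), chrX:163683356-163683415 (Tlr8), chr9:106128979-106129038 (Tlr9) and chrX:103355773-103355832 (Tlr13). Tlr1 and Tlr6 are neighbours, with 28190 bases between their probes.

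Of the 11 member probes measured, 3 were called higher (Cd14, Tlr2 and a probe of Tlr7), 1 was called lower (Tlr1) and 7 were not called. Of all 32664 probes kept, 11.4% were called higher and 12.2% lower. Among the members, 2 probes had all 8 KO-labelled values above all 8 control values, Cd14 and Tlr2, where 3.06% of all probes did, and 0 had all below, where 3.28% did. The median difference of the 11 probes was 0.10, against -0.01 over all probes kept. The differences that were not called ran from -0.24 for Tlr4 to 0.55 for Tlr8. The members thus did not all move in 1 direction, and Cd14 and Tlr2 had the largest differences of the 11.

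**Figure D1:**
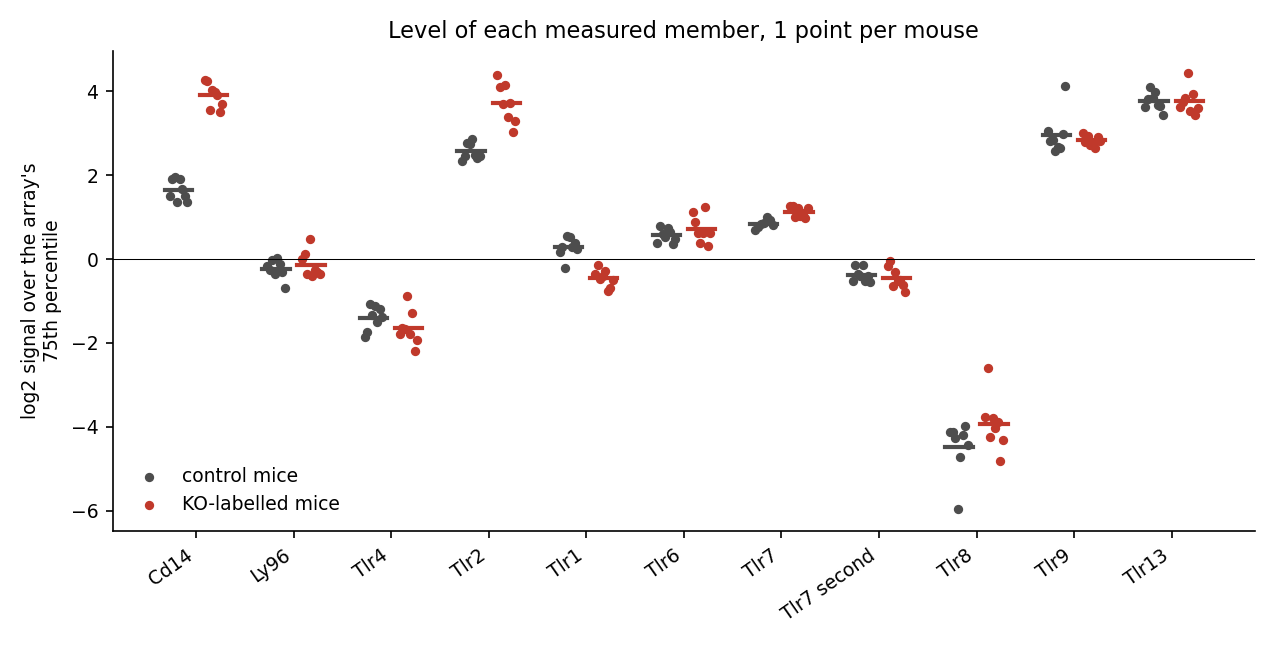
Level of the 11 measured member probes in each mouse, as log2 signal over the 75th percentile of the array (vertical axis), with controls in grey, KO-labelled mice in red and a line at each group mean. The groups do not overlap for Cd14 and Tlr2, Tlr1 lies lower in KO-labelled mice with ranges that touch, and control 8 stands apart for Tlr9; levels of different probes are not comparable.

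Cd14, a membrane-anchored or soluble protein that binds lipopolysaccharide and other ligands and passes them to the receptors, had the largest difference of the set. Its level in controls ran from 1.35 to 1.95 with a median of 1.59. In KO-labelled mice it ran from 3.51 to 4.27 with a median of 3.95. The lowest KO-labelled mouse, number 7, was still above the highest control, number 3. The difference was 2.26 ± 0.13 (SE, n = 8 mice per group, limma adjusted p = 2.16e-09), a 4.78-fold higher signal in the marrow of KO-labelled mice. It was the probe with the 80th smallest p of the 32664. Within the 5 slides that held both groups the Cd14 difference ran from 1.80 to 2.77, and it was 2.25 among the mice scanned on day 1 and 2.26 among those of day 2. In whole marrow, more cells of a type and more RNA per cell cannot be told apart, here or for any gene below.

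The other parts of the lipopolysaccharide receptor did not show this difference. Tlr4, the signalling chain, ran from -1.87 to -1.08 in controls (median -1.36) and from -2.18 to -0.89 in KO-labelled mice (median -1.72). KO-labelled mouse 4 was the highest of all 16, while KO-labelled mice 7 and 8 were the lowest. The Tlr4 difference was -0.24 ± 0.17 (limma adjusted p = 0.324), with a 95% interval from -0.60 to 0.11. Ly96 ran from -0.68 to 0.04 in controls (median -0.21) and from -0.40 to 0.47 in KO-labelled mice (median -0.28), so the groups overlapped almost entirely. The Ly96 difference was 0.10 ± 0.13 (adjusted p = 0.649), with a 95% interval from -0.19 to 0.38. The Cd14 interval ran from 1.97 to 2.54, above both. A Tlr4 probe for another transcript, at chr4:66590077-66590136, was not well above background on any array and gives no difference.

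Tlr2, which senses bacterial lipoproteins as a heterodimer with Tlr1 or Tlr6, was also higher in KO-labelled mice. Its level in controls ran from 2.34 to 2.87 with a median of 2.48. KO-labelled mice ran from 3.03 to 4.39 with a median of 3.71, a spread (SD) of 0.47 against 0.19 in controls. The groups did not overlap, and KO-labelled mouse 7 was again the lowest and mouse 1 the highest of their group. The Tlr2 difference was 1.15 ± 0.17 (limma adjusted p = 1.11e-04), a 2.23-fold higher signal. This probe was printed 10 times on each array, and the SD among its spots ran from 0.03 to 0.09 across arrays. That is less than the SD among the arrays of either group. With 1 array per mouse, it cannot tell a spread among mice from one among arrays. KO-labelled mice 1, 2, 3 and 4, with the dimmer arrays (75th percentile 232, 127, 195 and 193), read 4.39, 4.10, 3.71 and 4.16. Mice 5, 6, 7 and 8 (427, 407, 545 and 468) read 3.38, 3.72, 3.03 and 3.29. The part of array brightness in this spread was not tested. With array brightness as a covariate the Tlr2 difference was 0.98, the lowest of the 31 alternatives, and still called. The difference was positive within each of 5 slides, from 0.62 to 1.42, and was 1.23 on scan day 1 and 1.08 on scan day 2.

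Of the Tlr2 partners, Tlr1 fell and Tlr6 was not called. Tlr1, which pairs with Tlr2 for triacylated lipoproteins, ran from -0.21 to 0.55 in controls (median 0.29) and from -0.77 to -0.13 in KO-labelled mice (median -0.44). All KO-labelled mice except number 2 lay below every control, and all controls except number 3 lay above every KO-labelled mouse. The Tlr1 difference was -0.73 ± 0.11 (limma adjusted p = 1.62e-04), which is a 1.66-fold lower signal. It was negative within each of 5 slides, from -0.99 to -0.58. With the 8 mice of scan day 1 alone the difference was -0.76 and missed the threshold (adjusted p = 0.0625). Tlr6, the partner for diacylated lipoproteins, ran from 0.35 to 0.80 in controls (median 0.57) and from 0.32 to 1.25 in KO-labelled mice (median 0.63). KO-labelled mice 1, 2 and 6 lay above every control and the other 5 did not. The Tlr6 difference was 0.16 ± 0.13 (adjusted p = 0.422), with a 95% interval from -0.12 to 0.43, beside one from -0.98 to -0.49 for its neighbour Tlr1, and the contrast between them was not tested.

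**Figure D2:**
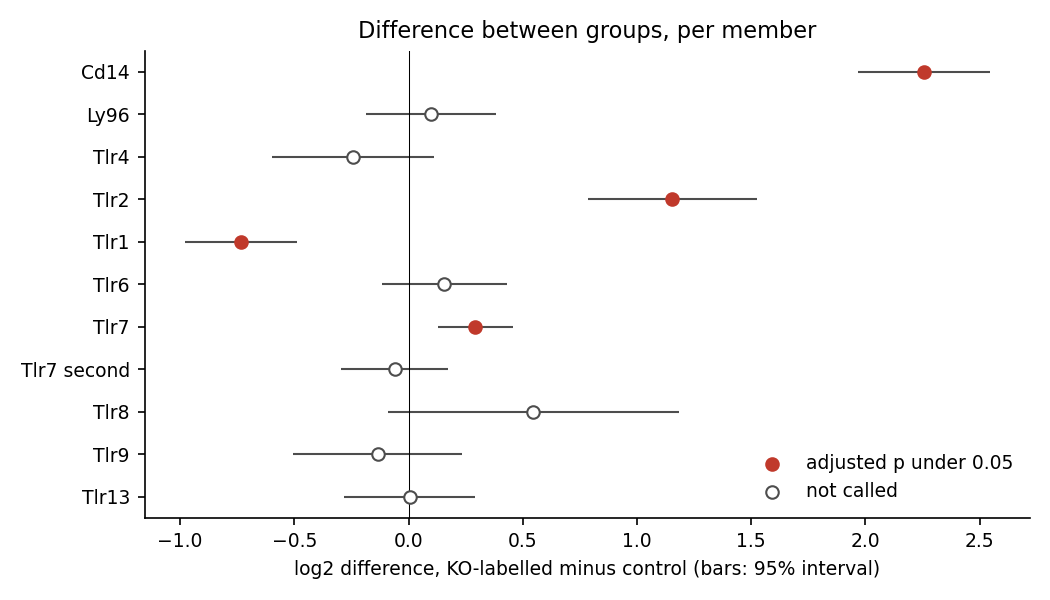
Difference between KO-labelled mice and controls for the 11 measured member probes (horizontal axis, log2), with bars for the 95% interval and filled points for probes with a limma adjusted p under 0.05. Cd14 at 2.26 and Tlr2 at 1.15 lie to the right, Tlr1 at -0.73 lies to the left, and the intervals of the 7 uncalled probes include 0.

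The endosomal receptors sense nucleic acids, and 1 of their 5 measured probes was called. Tlr7, a receptor for single-stranded RNA, was read by a pair of probes separated by 223 bases, and they gave different answers. The brighter probe ran from 0.68 to 0.99 in 7 controls (median 0.85) and from 0.97 to 1.26 in KO-labelled mice (median 1.15). KO-labelled mouse 7 was the only one that did not exceed the highest of these controls. Its difference was 0.29 ± 0.08 (limma adjusted p = 0.0109), a 1.22-fold higher signal. The spot of control 8 was left out as an outlier by the scanner software, and it read 1.83, above every other mouse. With such spots kept, the difference was 0.17 (adjusted p = 0.41), and the call was also lost with slide as a block (0.28, adjusted p = 0.0616). The dimmer Tlr7 probe ran from -0.56 to -0.15 in controls and from -0.78 to -0.04 in KO-labelled mice, with a difference of -0.06 ± 0.11 (adjusted p = 0.741). The probes correlated across mice at r = 0.62 in the 8 KO-labelled mice and r = 0.27 in 7 controls, as a description. Another Tlr7 probe, at chrX:163747214-163747273, was not well above background on any array.

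Tlr9, which senses unmethylated CpG DNA, ran from 2.59 to 4.13 in controls (median 2.82) and from 2.65 to 3.01 in KO-labelled mice (median 2.81). Control 8 alone set the top of the range, since the next control lay at 3.05. The Tlr9 difference was -0.13 ± 0.17 (limma adjusted p = 0.63), and it was 0.03 without control 8. Tlr13, a receptor for bacterial ribosomal RNA, ran from 3.44 to 4.10 in controls (median 3.74) and from 3.45 to 4.45 in KO-labelled mice (median 3.68). Its difference was 0.01 ± 0.13 (adjusted p = 0.984), with a 95% interval from -0.28 to 0.29.

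Tlr8, the neighbour of Tlr7 on the X chromosome with 59447 bases between their probes, was near the detection limit. The probe that passed the filter was well above background on 6 control and 5 KO-labelled arrays. It ran from -5.97 to -3.99 in controls (median -4.23) and from -4.82 to -2.59 in KO-labelled mice (median -3.96). Control 4 lay far below its group and KO-labelled mouse 2, the dimmest of all arrays, far above its own. The difference was 0.55 ± 0.30 (limma adjusted p = 0.205), and it was 1.11 among mice of scan day 1 and -0.01 among those of day 2. A second Tlr8 probe, at chrX:163680628-163680685, was well above background on 5 arrays of each group and did not pass the filter. Its difference was 0.38 (exact two-sided permutation p = 0.0314 over 12870 splits, n = 8 per group), and under quantile normalization it was 0.36 (exact permutation p = 0.0702).

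Processing was varied in 31 ways to see which member differences held. Cd14 and Tlr2 were called under each of them, Tlr1 under 30, and the brighter Tlr7 probe under 23 of the 30 it could be fitted in. The 7 uncalled probes were called under none of theirs.

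**Figure D3:**
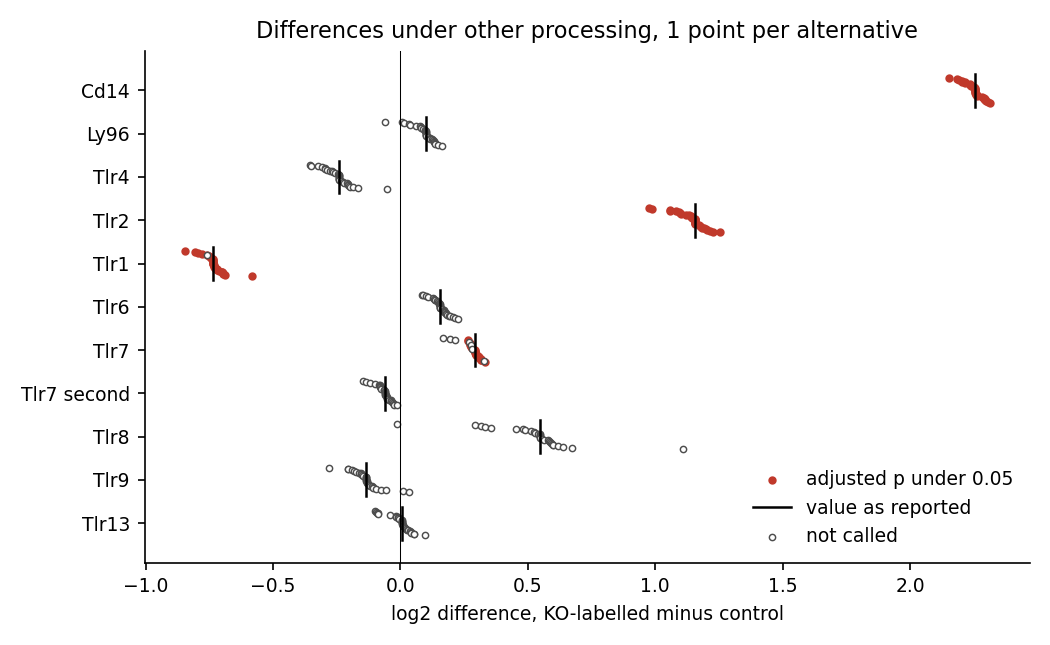
Difference between KO-labelled mice and controls (horizontal axis, log2) of each member probe under the other ways of processing, 1 point per alternative, filled where the limma adjusted p is under 0.05, with a black line at the value given above. Cd14 stays between 2.15 and 2.31 and Tlr2 between 0.98 and 1.25, while Tlr8 spreads from -0.01 to 1.11.

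Levels of receptor partners were compared across the mice of each group. For 6 pairs in 2 groups, 12 relations were computed, and 0 passed after Benjamini-Hochberg adjustment over the 12 (smallest adjusted exact permutation p = 0.219 for Pearson r and 0.129 for Spearman rho). Among controls, Cd14 and Ly96 gave r = 0.75 and rho = 0.86 (exact permutation p = 0.0255 and 0.0107 before adjustment, n = 8), and r was 0.55 without the 2 mice farthest from the Cd14 median. Among KO-labelled mice the same pair gave r = 0.60 and rho = 0.60 (exact permutation p = 0.113 and 0.132, n = 8). Tlr1 and Tlr2 gave r = 0.12 in controls and r = 0.48 in KO-labelled mice (exact permutation p = 0.807 and 0.229, n = 8 each). Tlr7 and Tlr9 gave r = -0.76 and rho = -0.75 in 7 controls (exact permutation p = 0.0464 and 0.0663 before adjustment). With the authors' values, which hold control 8 too, they gave r = 0.84 and rho = -0.21 (exact permutation p = 0.119 and 0.619, n = 8). The 8 mice of a group limit what such relations can show.

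Each member was also set beside the genes whose deviations from the group means followed it most closely over the arrays. For Tlr2 these were Glipr1, Sgk1, a kinase induced by glucocorticoids and serum, and Tmem109, each with r = 0.94 or 0.93 over 16 arrays, as a description with no test. Sgk1 was itself higher in KO-labelled mice by 0.84 (limma adjusted p = 3.2e-04). For Tlr1 the closest genes were H2-Aa, a chain of MHC class II, at r = 0.90, the neurotrophin receptor Ngfr at 0.89 and Zfp82 at 0.88. Tlr4 followed Tmem104, Gdi2 and Dgat2 (0.95, 0.95 and 0.94), and Tlr13 followed Nin and Washc3 (both 0.96). The brighter Tlr7 probe followed Ctdsp2, Znrf1 and Sulf2 (0.94, 0.94 and 0.92, over 15 arrays). For Cd14 the only one of 3 with a gene symbol was Akap7, an anchoring protein of protein kinase A, at r = 0.92, which was lower in KO-labelled mice by a difference of -0.86. Ly96 followed Dnajc1 and S100a10 (0.93 and 0.91), Tlr9 followed Tmem254c, D430042O09Rik and Piezo1 (0.96, 0.96 and 0.95), and Tlr8 followed D230034L24Rik and Zkscan7 (0.88 and 0.84). Control 8, at 4.13 for Tlr9 with the next control at 3.05, weighs heavily in the Tlr9 correlations. Control 4 and KO-labelled mouse 2, which stood apart for Tlr8, weigh heavily in the Tlr8 ones. For Tlr6 the 3 nearest had no gene symbol other than 6330415B21Rik (0.90). Genes were ranked over all gene names, and the arrays also share brightness and slide.

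Around the receptors, 75 of 82 other genes of the pathway were measured, each by its brightest probe. Of these, 13 were called higher, 9 lower and 53 were not called, where 10.3% of all 23096 gene names were called higher and 12.1% lower. Their median difference was 0.01. By role, the ligand handling and accessory genes held 4 of the 9 lower calls, and the cytokine and chemokine targets held 7 of the 13 higher ones. The lists were made with earlier results of these data known, so these counts are a description.

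**Figure D4:**
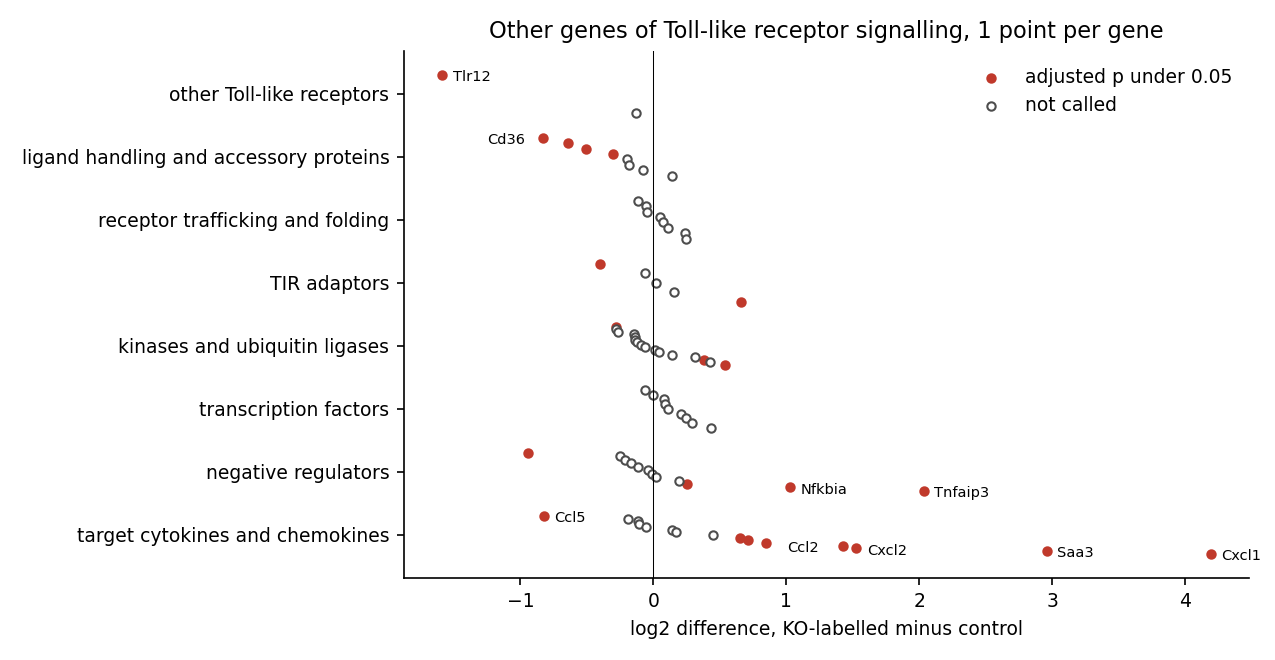
Difference between KO-labelled mice and controls (horizontal axis, log2) of the 75 measured pathway genes, grouped by role, 1 point per gene at its brightest probe, filled where the limma adjusted p is under 0.05. Tnfaip3 at 2.03, Saa3 at 2.96 and Cxcl1, whose size is approximate because only 2 control arrays measured it, lie to the right and Tlr12 at -1.59 farthest left, while receptor trafficking and transcription factors hold no filled point.

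Of the other Toll-like receptors, Tlr12, a mouse receptor for the protozoan protein profilin, fell. It ran from -1.41 to -0.45 in controls (median -0.84) and from -2.76 to -2.14 in KO-labelled mice (median -2.36), without overlap. The difference was -1.59 ± 0.13 (limma adjusted p = 1.14e-07), a 3.00-fold lower signal. Tlr5, the flagellin receptor, differed by -0.13 ± 0.24 (adjusted p = 0.738), and Tlr3 and Tlr11 were too dim to be measured.

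Of 8 ligand handling and accessory genes, 4 fell, 0 rose and 4 were not called, with a list median of -0.25. Cd180, a relative of Tlr4 on B cells and myeloid cells, ran from -2.73 to -2.12 in controls and from -3.44 to -2.28 in KO-labelled mice (difference -0.65 ± 0.14, limma adjusted p = 0.0026). Ly86 (MD-1), which binds Cd180 as Ly96 binds Tlr4, ran from 3.89 to 4.46 and from 3.33 to 4.11 (-0.51 ± 0.12, adjusted p = 0.00623). Both parts of the Cd180 complex were thus called lower, while neither Tlr4 nor Ly96 was called, and the contrast between the complexes was not tested. The Ly86 call was lost on scan day 1 alone and on scan day 2 alone (limma adjusted p = 0.113 and 0.124). Cd36, a scavenger receptor that hands diacylated lipids to Tlr2, differed by -0.83 ± 0.27 (adjusted p = 0.037), a call lost under 16 of 31 alternatives. Leaving out KO-labelled mouse 1, 2, 4, 5 or 6 or control 1, 2, 3 or 4 each ended it, with adjusted p between 0.0545 and 0.0749. Itgam, the alpha chain of complement receptor 3, differed by -0.31 ± 0.09 (adjusted p = 0.015), and its other probes gave 0.26 and 0.34. The Itgam call was lost on scan day 1 alone and on scan day 2 alone (adjusted p = 0.277 and 0.113). Under normexp background correction Cd180 differed by -0.17 (adjusted p = 0.423), and on scan day 2 alone by -0.56 (adjusted p = 0.149).

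Of 8 trafficking and folding genes, which bring the receptors to the surface or to endosomes and process them there, 0 were called in either direction by limma, and 1 had an unadjusted p under 0.05. The smallest p-values belonged to Hsp90b1 (gp96), the chaperone of most Toll-like receptors, at 0.25 ± 0.09 (adjusted p = 0.0548), and Unc93b1, the escort of the endosomal receptors, at 0.24 ± 0.11 (adjusted p = 0.15). Hsp90b1 passed under 9 of 31 alternatives, with adjusted p from 0.0197 to 0.0494, among them leaving out KO-labelled mouse 3 or 8 or control 3 or 5. Unc93b1 passed without KO-labelled mouse 3 (0.31, adjusted p = 0.0321).

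The signalling genes were called in both directions. Of 5 measured TIR adaptors, Ticam1 (TRIF), used by Tlr4 and Tlr3, fell, with a log2 difference of -0.40 ± 0.09 (limma adjusted p = 0.0032), and Pik3ap1, an adaptor to phosphatidylinositol 3-kinase, rose by 0.66 ± 0.17 (adjusted p = 0.00783). The Pik3ap1 call was lost under normexp background correction and on each scan day alone (adjusted p from 0.0571 to 0.167). The Ticam1 call was lost on scan day 1 alone (adjusted p = 0.141). Myd88, used by every member receptor, differed by -0.06 ± 0.12 (adjusted p = 0.776), and Sarm1 was too dim to be measured. Of 16 kinases and ubiquitin ligases, 2 rose and 1 fell. Btk, a tyrosine kinase of B cells and myeloid cells, ran from 1.86 to 2.39 in controls and from 2.44 to 3.15 in KO-labelled mice, without overlap (0.54 ± 0.10, adjusted p = 0.00114). The kinase Tbk1 rose by 0.38 ± 0.12 (adjusted p = 0.0237) and Tab2, a ubiquitin-binding partner of the kinase Tak1, fell by 0.28 ± 0.07 (adjusted p = 0.00931). The Tbk1 call was lost under 6 of 31 alternatives, among them leaving out control 1 (0.34, adjusted p = 0.05). The Tab2 call was lost on scan day 1 alone and on scan day 2 alone (adjusted p = 0.262 and 0.108). The Btk call was lost on scan day 1 alone (adjusted p = 0.122). For 3 of the kinases and ligases that were not called by their brightest probe, another kept probe was: Irak2 at 0.55, Map3k7 at 0.54, and Traf6 at 1.06 on one probe and -0.32 on another. Of 9 NF-kB and interferon regulatory factor genes, 0 were called by limma at their brightest probe and 2 had an unadjusted p under 0.05. Another kept probe of Nfkb1 was called, at 0.69 ± 0.15 (adjusted p = 0.00323), beside 0.09 at its brightest probe. The smallest p-values there were those of Rel at 0.43 ± 0.16 (adjusted p = 0.061) and Relb at 0.29 ± 0.12 (adjusted p = 0.0761). Rel passed without KO-labelled mouse 4 or 6 or control 1 (adjusted p from 0.0269 to 0.046), and Relb without KO-labelled mouse 4 or control 4 (0.0454 and 0.0481).

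Negative regulators held 2 of the larger differences. Tnfaip3 (A20), a ubiquitin-editing enzyme that NF-kB induces and that limits NF-kB signalling, ran from 3.26 to 4.68 in controls (median 4.20) and from 5.63 to 6.63 in KO-labelled mice (median 6.02). The groups did not overlap, and the difference was 2.03 ± 0.22 (limma adjusted p = 3.21e-06), a 4.10-fold higher signal. Nfkbia, the inhibitor that holds NF-kB in the cytosol, ran from 5.90 to 6.67 and from 7.13 to 8.05, also without overlap (1.03 ± 0.16, adjusted p = 1.38e-04). Tollip rose by 0.26 ± 0.08 (adjusted p = 0.0206), a call lost under 5 of 31 alternatives (adjusted p from 0.0612 to 0.259), although 2 dimmer probes of the gene were called higher too, at 0.43 and 0.93. In the other direction, Il1rl1 (ST2), the IL-33 receptor of mast cells and some lymphocytes, fell, with a log2 difference of -0.95 ± 0.24 (adjusted p = 0.00828). That call was lost on scan day 1 alone and on scan day 2 alone (adjusted p = 0.142 and 0.104). The other 8 of 12 measured, among them Irak3 and Sigirr, were not called at their brightest probe, although another probe of Tnip1 was (0.28).

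Of 15 measured cytokine and chemokine targets, 7 rose, 1 fell and 7 were not called. Their median was 0.45, against -0.02 over all gene names by brightest probe. Cxcl1, a neutrophil-attracting chemokine, was well above background on 2 control arrays and all 8 KO-labelled ones, and ran from -6.42 to -4.31 and from -2.75 to 1.08 (4.19 ± 0.44, limma adjusted p = 2.34e-06). It passed the filter through the KO-labelled group alone, so its size and error are approximate. Saa3, an acute-phase protein of macrophages and other cells, ran from -5.03 to -3.26 and from -2.89 to 0.05 (2.96 ± 0.37, adjusted p = 1.78e-05). Ccl2, which draws monocytes, rose by 1.43 ± 0.18 (adjusted p = 2.38e-05) and Cxcl2 by 1.53 ± 0.25 (adjusted p = 2.35e-04), each without overlap between the groups. Il1b, Il6 and Cxcl10 were the other 3 called higher, at 0.71, 0.65 and 0.85, and Ccl5 was the one called lower, at -0.82 ± 0.18 (adjusted p = 0.00251). Tnf, a classic target of these receptors, differed by 0.14 ± 0.15 (adjusted p = 0.538), and Il1a, Il12b and Ifnb1 were too dim to be measured.

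Markers of the cells that carry these receptors were read from the same arrays. Of 15 neutrophil markers, 0 rose, 1 fell and 14 were not called, and the mean level of the list, relative to the mean of the 16 mice, ran from -0.10 to 0.21 in controls and from -0.30 to 0.12 in KO-labelled mice. The 1 that fell was Itgb2l, at -2.05 ± 0.14. Those counts are of brightest probes, and other kept probes of Mpo and Camp were called higher, at 1.08 and 0.47. Of 14 monocyte markers, 3 rose, Klf4 by 0.71, Ccr2 by 0.67 and Nr4a1 by 0.58. The 3 that fell were Fcgr1, Itgam and Spn, with differences of -1.33, -0.31 and -0.26. Fcgr1 was well above background on 8 control and 6 KO-labelled arrays, so its difference is approximate. Another Spn probe gave 0.02 (limma adjusted p = 0.86). The list ran from -0.14 to 0.27 in controls and from -0.33 to 0.33 in KO-labelled mice. Other kept probes of Csf1r, Cx3cr1 and Itgam were called higher, at 0.85, 0.84 and 0.34. The part of either cell type in the Cd14 and Tlr2 differences was not tested.

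Macrophage and dendritic cell markers fell where their brightest probe was called. Of 11 measured macrophage markers, 0 rose and 5 fell, among them Cd5l by 1.50, C1qc by 1.58 and Axl by 1.13 on the log2 scale, and Mertk, Cd163 and Timd4 were too dim to be measured. Another kept probe of Hmox1 was called higher, at 0.60. The list ran from -0.16 to 0.70 in controls and from -0.69 to 0.28 in KO-labelled mice. Of 11 measured dendritic cell markers, 0 rose and 5 fell, among them Clec9a, Ccr9 and Batf3 with differences of -1.56, -0.71 and -0.59, and Xcr1 was too dim. That list ran from 0.03 to 0.32 in controls and from -0.38 to 0.06 in KO-labelled mice. Tlr1, Tlr12, Cd180 and Ly86 moved in the same direction as these lists, and the part of cell composition in their differences was not tested.

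The other lists moved as follows. Of 15 B cell markers, Vpreb1 and Igll1, parts of the precursor B cell receptor, rose by 1.36 and 1.40, Cr2 differed by -0.65 and 12 were not called. Among 11 T and NK cell markers 2 rose, Cd3d by 2.18 and another, and 2 fell, Thy1 and Cd8a, with differences of -1.20 and -1.42, and a dimmer probe of Klrb1c, uncalled at its brightest, was well above background on 8 control and 0 KO-labelled arrays. Megakaryocyte and platelet markers fell in 7 of 10, led by Clec1b at -2.87, with the list between 0.13 and 0.92 in controls and between -0.997 and 0.21 in KO-labelled mice. Of 6 measured endothelial markers Stab2 rose by 4.99 and Vwf and Cdh5 differed by -1.28 and -0.91, with the list between -0.48 and 0.05 in controls and between 0.06 and 0.53 in KO-labelled mice, a shift carried by Stab2. Without Stab2 the mean of the other 5 ran from -0.02 to 0.45 in controls and from -0.38 to 0.26 in KO-labelled mice. That lower mean comes from Vwf and Cdh5, while Pecam1, Kdr and Egfl7 differed by 0.14, 0.07 and 0.30 and were not called. Cdh5 was well above background on 8 control and 5 KO-labelled arrays, so its difference is approximate. Tek and Emcn were too dim to be measured. Of 10 erythroid markers, 0 were called by limma and 0 had an unadjusted p under 0.05. Whether shifts in these cells take part in the member differences was not tested.

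**Figure D5:**
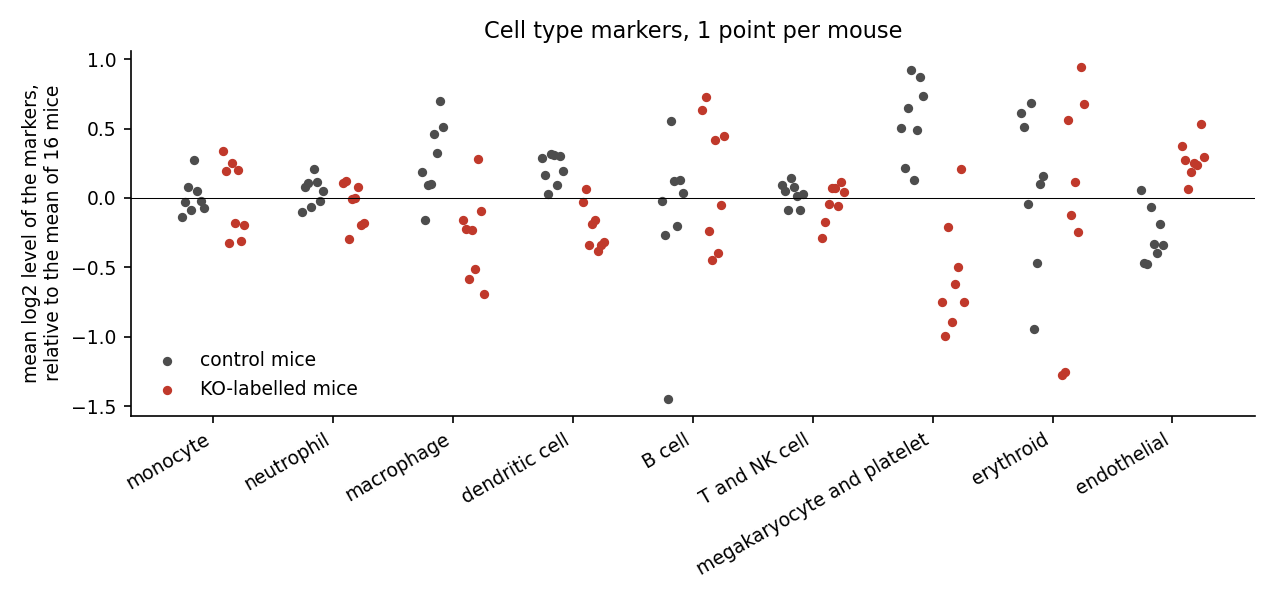
Mean log2 level of 9 lists of cell type markers in each mouse, relative to the mean of the 16 mice (vertical axis), with controls in grey and KO-labelled mice in red. Neutrophil and monocyte markers overlap between the groups, while macrophage, dendritic cell, and megakaryocyte and platelet markers lie mostly lower in KO-labelled mice. The higher endothelial mean is carried by Stab2.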

How the data were processed

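Per the labels' protocols, marrow RNA carried Cy3 and was read on Agilent arrays of 1 colour. The submitters' processing notes name Agilent Feature Extraction 10.7. In the file headers, the field read here is the version of the grid placement step, 10.1.1.1. The output of Feature Extraction, as deposited, is the linear intensity of each spot after subtraction of background by that software. The authors' deposited value table holds log2 values that followed each array's scanner signal at r of 0.991 or more. Its column medians ran from 4.98 to 5.00. Scale and direction follow from that match, and its centring is unknown here.

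Processed signals were divided by the 75th percentile of the non-control spots of the array and taken to log2. Outlier spots were left out and spots of a probe were averaged. Of 55681 probes, 32664 were kept, those that the scanner software marked as well above background on 6 or more of the 8 arrays of a group and that had 3 or more values in both. Groups were compared per probe with limma 3.58.1 in R 4.3.3 (two-sided, Benjamini-Hochberg adjustment over all kept probes). Genes outside the set were read from their brightest kept probe, and 14413 names were matched to RefSeq (GRCm38.p6, names only). Intervals are the SE times the t quantile at 14 degrees of freedom. Arrays within a group correlated at 0.976 to 0.995, so none was a copy of another. On simulated data for this comparison (31740 probes), the test recovered 21 of 50 probes changed by 0.5, 37 of 50 changed by 1, 48 of 50 changed by 2 and 39 of 50 changed by -1. It made 6 false calls, and 0 where nothing was changed. Far fewer probes were changed there than were called in the data, and noise was drawn independently for each probe and array. The recovery rates therefore need not hold for the data.

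Named genes were all members with every probe, Adrb1, of each pathway list up to 4 called genes by smallest p (2 where none was called), of each cell type list up to 3, and the 3 genes closest to each member in deviations from the group means. Tlr5, Myd88, Tnf, Ccr2, Fcgr1, Il1b, Il6, Cxcl10, Ccl5 and some uncalled or dim genes are named beyond that rule, chosen after their values were seen. A gene that the rule names is not reported here. The members and lists were chosen with earlier results of these data known.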

Additional observations from a re-analysis of the deposited data

Results flagged for a closer look

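In 4 of 66 groups of mice examined, 1 mouse stood apart from the rest by Dixon's ratio, the gap to its nearest neighbour over the range of the group. Chance marks about 1 group in 20. For Tlr9, control 8 at 4.13 was separated from the next control at 3.05 (ratio 0.698). For the dim Tlr8 probe, control 4 at -5.97 lay below the next at -4.72 (ratio 0.63), and KO-labelled mouse 2 at -2.59 lay above the next at -3.77 (ratio 0.531). For Cd180, KO-labelled mouse 1 at -2.28 lay above the next at -3.01 (ratio 0.627).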

How the results depend on the processing

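The members were recomputed under 31 alternatives, and 330 of 339 member values kept their side of the threshold. Of the uncalled probes, Tlr9 (-0.28 to 0.03), Tlr13 (-0.10 to 0.10) and Ly96 (-0.06 to 0.16) changed sign under some alternatives. So did the Tlr8 probe that passed the filter (-0.01 to 1.11). Cd14 ran from 2.15 to 2.31 and Tlr2 from 0.98 to 1.25, called under each of the 31, and Tlr1 ran from -0.85 to -0.58. The other 9 values were weaker: Tlr1 on scan day 1 alone, the second Tlr8 probe under quantile normalization, and the brighter Tlr7 probe under 7 alternatives, where it ran from 0.17 to 0.33. Besides those given above, these were normexp background correction (0.22), the authors' values (0.19), scan day 1 alone (0.27), scan day 2 alone (0.33) and the replicate block (0.28, adjusted p = 0.0738).

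Member probes called higher stayed at 3 and lower at 1 when any 1 mouse was left out, and on scan day 1 alone 0 were called lower. Leaving out 1 mouse gave 3240 to 3981 probes called higher and 3365 to 4191 lower, and 13 to 16 pathway genes higher and 8 to 11 lower. Over all probes, scan day 1 alone gave 1124 higher and 1332 lower, scan day 2 alone 1836 and 1622, normexp 2139 lower, and 1 probe per gene name 2362 higher, where fewer probes are tested. Pathway genes called higher were 6 on scan day 1 alone, and lower ones 3 on day 1 and 2 on day 2. These fits hold 8 of the 16 mice. Mice with the same replicate number did not deviate together (correlations from -0.18 to 0.19, with 1 of 8 closest to its own number). The numbers thus gave no sign of a pairing, which such correlations cannot exclude. With the replicate block, 3373 probes were called higher and 3638 lower, 2 member probes higher and 1 lower, and 15 pathway genes higher and 8 lower.
The number of mice limits the precision, as does the dim signal of Tlr8. The endothelial level without Stab2 and the other probes of listed genes were examined after seeing the data.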
